A study of Mus musculus with 16 samples.

Results

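The genes of betaine use and of the methionine cycle were followed across 16 expression arrays of mouse embryonic stem cells (mESCs). The set held 9 genes (Bhmt, Bhmt2, Dmgdh, Sardh, Gnmt, Mat2a, Ahcy, Mtr and Cbs) of the 21154 named genes on the array. They were taken by the RefSeq identifier of their probes, and the set was chosen because Bhmt and Dmgdh rose strongly with the medium called 2i. For that reason their 2i responses are given here as a description without a test, and tests were kept for comparisons between cell lines and for genes outside the set. The set was measured by 14 probes. Of these, 13 probes of 8 genes entered the tests, which required a signal well above background on all arrays of some group, and the probe of Sardh did not.

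All 3 lines derive from male J1 mESCs of the 129S4/SvJae strain. Wild-type J1 cells were the reference. TKO cells lack functional Dnmt1, Dnmt3a and Dnmt3b, the maintenance and de novo DNA methyltransferase genes. 3B3l cells are a Dnmt3a and Dnmt3b knockout that carries exogenous, constitutively expressed Dnmt3b together with its cofactor Dnmt3l, so that Dnmt3b no longer depends on its own promoter. In the serum groups (J1-serum with 4 arrays, TKO-serum and 3B3l-serum with 2 each) cells grew with fetal calf serum and LIF at 500 U/ml. In the 2i groups (J1-2i and TKO-2i with 3 arrays each, 3B3l-2i with 2) they were kept for 2 weeks in serum-free N2B27 medium with LIF at 1000 U/ml, the MEK inhibitor PD0325901 at 1 µM and the GSK3 inhibitor CHIR99021 at 3 µM. J1 cells in serum were on inactivated SNLP feeder cells and the other lines were feeder free, so that line and feeder use cannot be told apart in serum. Feeders were named for J1 in serum only, so medium and feeder use cannot be told apart in the 2i response of J1. Differences of 2i responses from J1 carry the same limit. The labels do not say whether replicates were separate cultures, and p-values may therefore measure technical spread only.

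The methionine cycle makes the methyl donor of the cell. Mat2a turns methionine into S-adenosylmethionine, methyltransferases spend it, Ahcy breaks down the by-product S-adenosylhomocysteine, and the homocysteine that results is methylated back to methionine by Mtr with folate or by Bhmt with betaine, or leaves the cycle through Cbs. Betaine that has given its methyl group is dimethylglycine, which Dmgdh and then Sardh strip down to glycine in mitochondria, while Gnmt spends S-adenosylmethionine on glycine; Bhmt, Dmgdh, Sardh and Gnmt are best known from liver.

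Bhmt, Bhmt2 and Dmgdh are neighbours on mouse chromosome 13. In the RefSeq annotation of assembly GRCm38.p6, Bhmt occupies chr13:93616891-93637758 on the minus strand. Bhmt2 follows at chr13:93656097-93674302 on the same strand, 18338 bases away. Dmgdh lies at chr13:93674436-93752823 on the plus strand and starts back to back with Bhmt2, with 133 bases between the ends of the annotated genes. These bases are shown because any element in them faces both genes, with each CG dinucleotide, the unit of DNA methylation, in capitals. The run covers chr13:93674303-93674435 on the plus strand (RefSeq, GRCm38.p6), so that Bhmt2 reads leftward from its left end and Dmgdh rightward from its right end.

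Bhmt2-Dmgdh: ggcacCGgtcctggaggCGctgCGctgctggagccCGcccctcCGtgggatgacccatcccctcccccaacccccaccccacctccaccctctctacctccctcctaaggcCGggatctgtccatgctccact

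The 250 bases before the start of Bhmt (chr13:93637759-93638008, minus strand, 5′ to 3′) are shown for their contrast with that run: they held 5 CG dinucleotides, against 6 in the 133 bases. Capitals mark AAGGTCA, the element that orphan nuclear receptors such as Esrrb, a pluripotency factor, are known to bind.

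Bhmt: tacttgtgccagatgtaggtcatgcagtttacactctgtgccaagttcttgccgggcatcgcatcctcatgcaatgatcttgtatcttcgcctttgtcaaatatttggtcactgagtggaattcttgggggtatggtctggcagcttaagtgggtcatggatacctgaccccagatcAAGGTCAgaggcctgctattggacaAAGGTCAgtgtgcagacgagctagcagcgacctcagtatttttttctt

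AAGGTCA stood 2 times before Bhmt, beginning at positions -73 and -48 from the start on the strand of the gene. In 32851 mouse promoter windows of 300 bases (250 before and 50 after each start), 4.72% held AAGGTCA on either strand and 0.18% held it at least 2 times. No other member window held it. By contrast GGGCGG, the core of the GC box, was found in the windows of Bhmt2, Dmgdh, Mat2a, Ahcy, Mtr and Cbs, and in 35.7% of all windows. The sequence TATAAA was found before Mat2a (13.6% of all windows) and CACGTG before Cbs (7.15%), while CTTTGAT (3.73%) and TTCNNNGAA (8.3%) were found in no member window. Windows overlap where genes lie back to back, and those of Bhmt2 and Dmgdh share 233 bases.

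The members also differed in CG content. The window of Mat2a held 34 CG dinucleotides, that of Bhmt2 26, Dmgdh 25, Mtr 24 and Cbs 22, against a median of 7 over all windows. Ahcy had 13, Gnmt 11, Bhmt 8 and Sardh 4. Among the 3 neighbouring genes, Bhmt was thus close to the median and the other two were CG-rich. These counts describe the sequence alone, since methylation at these sites was not analysed here.

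Levels are given as log2 of the array signal minus log2 of the 75th percentile over that array's spots, so that a signal at the 75th percentile has level 0. A level compares arrays for 1 probe and never 1 gene with another. The 75th percentile signal was 1018.8 to 1797.2 intensity units, 39.69% to 48.96% of spots were well above background, and arrays of a group correlated at 0.975 to 0.9891. Of the targeted genes, Dnmt3a was above background in J1 and on no TKO or 3B3l array. Dnmt1 was at 1.61 to 1.91 in J1-serum and at -1.70 to -1.65 in TKO-serum, lower but above background. Dnmt3b was at a mean of 2.96 in J1-serum and 0.63 in J1-2i, -0.34 and -0.64 in TKO (above background on all 5 arrays) and 5.53 and 5.82 in 3B3l. Dnmt3l was saturated in TKO-serum and 3B3l-serum, and at 0.74 in J1-2i, 2.94 in TKO-2i and 4.38 in 3B3l-2i. Where these probes lie relative to the deleted parts is not given in the sources used here. All 8 pluripotency markers were above background on every array. One array stood apart for genes of the set: J1-serum replicate 1 was the only J1 array on slide 3, which also held all 4 3B3l arrays, and values that it moves are given with and without it.

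Bhmt was near or under background in serum and bright in 2i, in each line. The probe with the highest mean (A_55_P2105180) read -2.55, -2.19, -3.01 and -3.08 on the 4 J1-serum arrays, and only the array at -2.19 was above background. On the J1-2i arrays it read 2.52, 2.64 and 2.63. TKO-serum arrays read -1.75 and -1.72 and TKO-2i arrays 3.05, 2.87 and 2.93, and all 5 were above background. 3B3l-serum arrays read -2.21 (not above background) and -1.78, against 2.93 and 3.09 in 3B3l-2i. The serum and 2i arrays did not overlap in any line, and all 8 of the 2i arrays lay above the 75th percentile of their array.

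The 2i minus serum difference of Bhmt was 4.68 ± 0.22 (SE) on the log2 scale in TKO, where all arrays were above background. The fitted values were 5.31 ± 0.19 in J1 and 5.01 ± 0.25 in 3B3l, but they rest in part on serum levels under background (3 of 4 and 1 of 2 arrays) and are not measured differences. The other Bhmt probes gave a like picture: A_55_P2105181 differed by 4.77, 4.33 and 4.74, and A_55_P2103963 by 4.59, 4.68 and 4.83. The first of these was under background on all 4 J1-serum arrays and the last on all 8 serum arrays, so that their levels there are only upper limits. Set against the dimmest signal still above background, the 2i level of A_55_P2105181 was higher by at least 18.9-fold in J1, and that of A_55_P2103963 by at least 5.32-fold (J1), 8.37-fold (TKO) and 7.04-fold (3B3l). In total RNA of a culture, more cells of a kind and more RNA per cell cannot be told apart.

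Bhmt2 encodes the relative of Bhmt that methylates homocysteine from S-methylmethionine. Its levels in J1 were -2.07, -1.23, -2.14 and -2.28 in serum (the last 2 not above background) and 1.15, 1.13 and 1.26 in 2i. TKO-serum arrays read -3.73 (not above background) and -1.51, and TKO-2i arrays 1.30, 1.29 and 1.27. For 3B3l the readings were -2.66 (not above background) and -1.88 in serum against 2.52 and 2.74 in 2i. Thus the 2i arrays of J1 and TKO sat between 1.13 and 1.30, and the 3B3l-2i arrays sat above them all. The fitted difference was 3.11 ± 0.41 in J1, 3.90 ± 0.49 in TKO and 4.90 ± 0.54 in 3B3l, each resting in part on serum levels under background. In TKO it was set by the serum arrays. Against TKO-serum replicate 2 alone it was 2.79, and against replicate 1 alone, which was under background, the 2i level was higher by at least 15.99-fold.

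Dmgdh, the mitochondrial dehydrogenase that takes up the dimethylglycine made by Bhmt, read 0.33, -4.71, -4.61 and -4.40 in J1-serum, and only the array at 0.33 was above background. In J1-2i it read 2.09, 1.91 and 2.13. TKO-serum arrays read -4.72 and -4.56 against 2.64, 2.40 and 2.46 in TKO-2i. 3B3l-serum arrays read -3.15 and -2.995 against 3.06 and 2.98 in 3B3l-2i, and no serum array of either line was above background. Dmgdh was therefore not detected in serum on 7 of 8 arrays and was detected on all 8 arrays in 2i.

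The exception was J1-serum replicate 1, on which Bhmt was not above background (-2.55) while Dmgdh was. With that array the fitted 2i minus serum difference of Dmgdh in J1 was 5.39 ± 0.93. Without it no J1-serum array was above background, and the 2i level was higher by at least 24.0-fold against the dimmest signal above background. Within slides 1 and 2, which held both J1 groups and not that array, the bounds were 22.9-fold and 26.4-fold. In TKO the fitted difference was 7.14 ± 1.11, which stands for at least 39.4-fold, and in 3B3l 6.09 ± 1.22, for at least 38.7-fold.

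**Figure D1:**
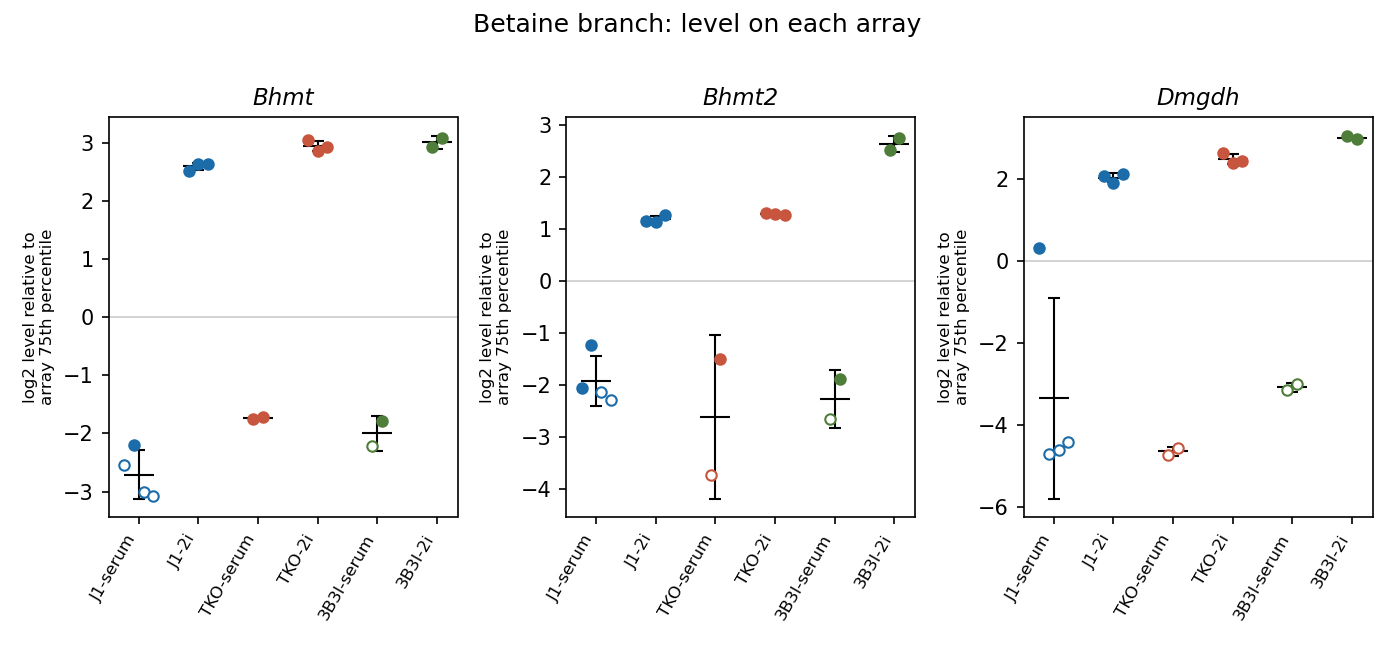
Levels of Bhmt, Bhmt2 and Dmgdh on each array (points; log2 above or below the array's 75th percentile) in the 6 groups, with group mean and SD in black; open points were not above background. All 2i arrays lie above all serum arrays for each gene, and the Dmgdh point at 0.33 is J1-serum replicate 1.

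Sardh, which acts on the product of Dmgdh, was not detected in either medium. Its only probe was not above background on any of the 16 arrays, with readings between -4.93 and -2.63, so that a low level could not be seen at this signal. Hence of the mitochondrial pair, a rise was measurable for Dmgdh alone.

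Gnmt moved the other way. Gnmt, which spends S-adenosylmethionine on the methylation of glycine, was above background on every array, at 0.52, 0.96, 0.92 and 0.87 in J1-serum and -0.50, -0.37 and -0.55 in J1-2i. It read 0.26 and 0.74 in TKO-serum against -0.55, -0.24 and -0.45 in TKO-2i, and 0.09 and -0.19 in 3B3l-serum against -0.61 and -0.81 in 3B3l-2i. The serum arrays were above the 2i arrays in each line without overlap. The 2i minus serum difference was -1.29 ± 0.14 in J1, -0.91 ± 0.17 in TKO and -0.66 ± 0.19 in 3B3l.

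Mat2a, Ahcy, Mtr and Cbs, the core of the cycle, had small differences between media. Cbs, which commits homocysteine to cysteine synthesis, read 1.72 to 1.80 in J1-serum and 2.16 to 2.21 in J1-2i, 1.75 and 1.90 in TKO-serum and 2.41 to 2.55 in TKO-2i. It differed by 0.42 ± 0.09 (J1), 0.64 ± 0.11 (TKO) and 0.25 ± 0.12 (3B3l), and arrays did not overlap in any line. For Mat2a the difference was 0.66 ± 0.11 (J1), -0.10 ± 0.14 (TKO) and -0.08 ± 0.15 (3B3l). For Ahcy the values were 0.24 ± 0.16, 0.07 ± 0.19 and -0.38 ± 0.20. Its lowest J1-serum array, at 2.84 against 3.32 to 3.39, was again replicate 1. Without that array the J1 difference was 0.115 for Ahcy and 0.75 for Mat2a.

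The probes of Mtr, the methionine synthase that uses folate and cobalamin, did not run together. The brighter one (A_55_P1997866) differed by -0.33 ± 0.22 (J1), 0.41 ± 0.26 (TKO) and 0.33 ± 0.28 (3B3l), whereas the other (A_55_P2152962) differed by 0.35 ± 0.10, 0.32 ± 0.12 and 0.36 ± 0.13. Without J1-serum replicate 1 the brighter one differed by -0.51 in J1. No direction of Mtr in J1 can be read from them. Counted by the thresholds used for other genes (adjusted p of at most 0.05 and at least 2-fold), 3 of the 8 measured members were higher in 2i in each line. Of all genes 10.1% were higher in J1, 6.72% in TKO and 5.62% in 3B3l. Lower in 2i were 1 member in J1 (Gnmt) and 0 in TKO and 3B3l, beside 12.6%, 9.08% and 7.95% of all genes. The set was chosen on this contrast, so nothing is read from these counts.

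**Figure D2:**
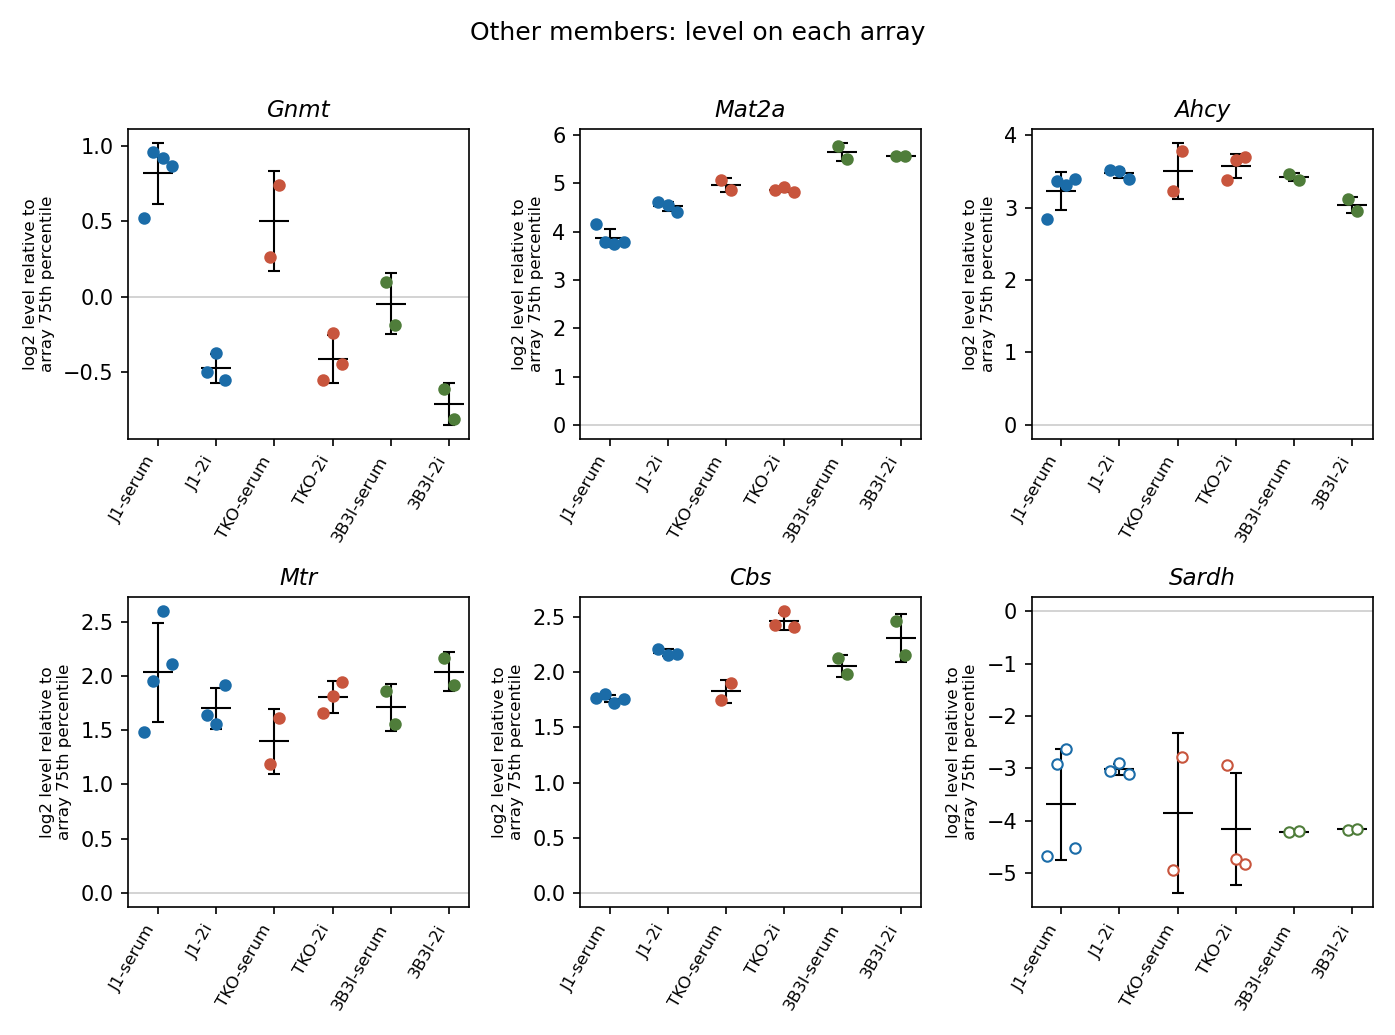
Levels of Gnmt, Mat2a, Ahcy, Mtr, Cbs and Sardh on each array (points; log2 above or below the array's 75th percentile) in the 6 groups, with group mean and SD in black; open points were not above background. Gnmt is lower in 2i in each line, Mat2a is lowest in J1-serum, and all Sardh points are open.

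The comparison of TKO and 3B3l with J1 in the same medium asked whether the level of a member differed between the lines. In serum the lines differ in feeder use as well as in their DNA methyltransferases, and these cannot be told apart. This comparison was not used to choose the set. Mat2a, the gene of S-adenosylmethionine synthesis in cells other than hepatocytes, differed most clearly. Its brighter probe (A_51_P500344) read 4.15, 3.79, 3.75 and 3.79 in J1-serum, 5.07 and 4.86 in TKO-serum and 5.78 and 5.51 in 3B3l-serum, and the 3 lines did not overlap on this probe. TKO exceeded J1 by 1.10 ± 0.13 (adjusted p = 2.3e-05) and 3B3l exceeded J1 by 1.78 ± 0.13 (adjusted p = 3.3e-07). Without J1-serum replicate 1 the differences were 1.19 and 1.87.

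The other Mat2a probe (A_55_P2095047) gave 1.23 ± 0.19 in TKO (adjusted p = 0.0002) and 1.70 ± 0.19 in 3B3l (adjusted p = 1.2e-05). On it TKO-serum (4.11 and 4.61) and 3B3l-serum (5.11 and 4.54) both lay above J1-serum (3.02 to 3.20) but overlapped each other, so that no order of TKO and 3B3l can be read. Within slide 1, which held J1-serum and TKO-serum arrays, the TKO difference of the brighter probe was 1.20. Within slide 3 the 3B3l difference was 1.49, against J1-serum replicate 1 alone. The call for TKO is close to its 2-fold limit: the value was 0.99 without TKO-serum replicate 1.

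In 2i the lines were closer for Mat2a. J1-2i arrays read 4.61, 4.55 and 4.41, TKO-2i arrays 4.85, 4.93 and 4.82, and 3B3l-2i arrays both 5.57, of which that of replicate 1 was saturated. TKO exceeded J1 by 0.35 ± 0.12 (adjusted p = 0.059) and 3B3l exceeded J1 by 1.04 ± 0.14 (adjusted p = 8.7e-05). The other probe, saturated on no array, gave 0.28 ± 0.18 (adjusted p = 0.30) and 0.81 ± 0.20 (adjusted p = 0.0066), so that it stayed short of 2-fold in 3B3l-2i. With slide as a term in the model the 3B3l value was 0.66 (adjusted p = 0.030), since no J1-2i array shared a slide with 3B3l. On the brighter probe the 2i response of Mat2a was smaller than in J1 by 0.75 ± 0.18 in TKO (adjusted p = 0.0074) and by 0.73 ± 0.19 in 3B3l (adjusted p = 0.011), both short of 2-fold. Without J1-serum replicate 1 it was smaller by 0.85 and 0.83 on that probe (adjusted p = 0.0010 and 0.0015). On the unsaturated probe the difference of responses was -0.96 ± 0.26 in TKO and -0.89 ± 0.27 in 3B3l (adjusted p = 0.016 and 0.030). Feeder use enters these differences through J1-serum.

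Serum cultures also differed in the levels of markers of other cell types. Which cells held these transcripts was not measured, and their part in the values of the set was not tested. The summed level of 12 fibroblast markers (signals divided by the 75th percentile, added over the list) was 31.4 to 39.8 in J1-serum, 5.94 to 6.88 in TKO-serum and 15.7 to 16.6 in 3B3l-serum. It was 1.41 to 1.71 in J1-2i, 2.23 to 2.43 in TKO-2i and 3.08 to 3.12 in 3B3l-2i. In J1-serum 7 of the 12 were above background on all arrays, and Fbn1 and Lum on none. In TKO-serum 5 of the 12 were above background on all arrays and 5 on none, and in 3B3l-serum 6 and 6. The 7 markers of primitive endoderm were all above background in J1-serum (summed level 11.8 to 13.3) and summed to 0.448 to 0.511 in J1-2i, 1.32 to 1.79 in TKO-serum and 1.61 to 1.70 in 3B3l-serum. Of the 7, 3 were above background on all arrays of TKO-serum and 2 on none, and in 3B3l-serum 3 and 4. Trophoblast markers (5 genes) stood highest in 3B3l-serum. They summed to 83.7 to 94.9 there, with 4 above background on both arrays and Elf5 on neither, against 16.5 to 23.0 in J1-serum and 9.29 to 9.31 in TKO-serum, and 6.27 to 8.89 over the 2i arrays. They fell to 6.90 to 7.51 in 3B3l-2i. The 5 markers of kidney tubule summed to 7.78 to 9.44 in J1-serum, 3.31 to 4.55 in TKO-serum and 4.72 to 4.99 in 3B3l-serum, and to 0.513 to 0.89 over the 2i arrays. In J1-serum Slc34a1 was above background on no array. Only Cubn and Lrp2 were above background on all arrays of TKO-serum, and only Lrp2 on all of 3B3l-serum. Of 10 liver markers, Hnf4a was above background on all arrays of J1-serum, J1-2i and TKO-serum, and Cyp2e1 on all arrays of TKO-serum, 3B3l-serum and 3B3l-2i. Alb, Afp, Apoa1 and Tdo2 were not above background on any array, and the list summed to 0.823 to 1.46.

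Between lines in serum the Bhmt probes gave unequal pictures, at signals near background. For the representative probe, above background on 1 of 4 J1-serum arrays, the fitted difference from J1 was 0.98 ± 0.21 in TKO (adjusted p = 0.0027) and 0.71 ± 0.21 in 3B3l (adjusted p = 0.016), both under 2-fold. These sizes rest on levels under background and are not measured folds. The TKO-serum arrays lay above all J1-serum arrays, while 3B3l-serum overlapped them and was above background on 1 of 2 arrays. Without J1-serum replicate 1 the TKO difference was 1.03 (adjusted p = 0.0035). The probe A_55_P2105181 gave 0.84 ± 0.16 in TKO (adjusted p = 0.0013) and 1.00 ± 0.16 in 3B3l (adjusted p = 0.00028). Since this probe was under background on all J1-serum arrays, the excess was at least 1.24-fold (TKO) and 1.39-fold (3B3l). The probe A_55_P2103963 was under background on all serum arrays and gave adjusted p of 0.41 and 0.21. In 2i, where all arrays were above background, the representative probe of Bhmt differed from J1 by 0.35 ± 0.20 in TKO (adjusted p = 0.24) and 0.41 ± 0.22 in 3B3l (adjusted p = 0.16). There A_55_P2105181 differed by 0.40 ± 0.16 in TKO (adjusted p = 0.083) and 0.98 ± 0.17 in 3B3l (adjusted p = 0.00088), without overlap and just under 2-fold, and A_55_P2103963 by 0.44 ± 0.29 and 0.73 ± 0.32 (adjusted p = 0.32 and 0.092).

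Bhmt2 in 3B3l-2i exceeded its J1-2i level by 1.45 ± 0.49 (adjusted p = 0.034), in 2 of 2 arrays. The same difference was 0.10 ± 0.44 in TKO-2i (adjusted p = 0.89). The call on 3B3l-2i was near its threshold: the size stayed between 1.34 and 1.83 under all alternatives run, but adjusted p rose to 0.20 with slide as a term and lay between 0.064 and 0.14 when any single J1-2i or 3B3l-2i array was left out. The 2i response of Bhmt2 differed between 3B3l and J1 by a fitted 1.79 ± 0.68 (adjusted p = 0.072), which rests on serum levels under background on 2 of 4 J1 and 1 of 2 3B3l arrays. Dmgdh in 2i exceeded J1 by 0.46 ± 1.00 in TKO and 0.98 ± 1.11 in 3B3l, with adjusted p of 0.78 and 0.51. The large errors rest on J1-serum replicate 1, whose spread enters the pooled error: without it the same differences had adjusted p of 0.010 and 8.6e-05, still under 2-fold. With slide as a term the 3B3l-2i value turned to -3.93, because that array then carries the whole link between 3B3l and J1.

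Gnmt was lower in 3B3l-serum than in J1-serum by 0.86 ± 0.16 (adjusted p = 0.00085), and the other differences between lines were -0.32 (TKO-serum), 0.06 (TKO-2i) and -0.23 (3B3l-2i). Within slide 3, against J1-serum replicate 1 alone, the 3B3l-serum difference was -0.57 for Gnmt and 0.29 for Cbs. No slide held both J1-2i and 3B3l-2i arrays, so line and slide cannot be told apart there for any gene. Cbs was higher than in J1 by 0.30 ± 0.10 in 3B3l-serum (adjusted p = 0.029) and by 0.29 ± 0.10 in TKO-2i (adjusted p = 0.047). For Ahcy the brighter probe gave no adjusted p under 0.05 between lines. It was nearest in 3B3l-2i, at -0.44 ± 0.19 (adjusted p = 0.082, and 0.034 without J1-serum replicate 1). The other Ahcy probe (A_55_P2031100) was lower in 3B3l-2i than in J1-2i by 0.73 ± 0.26 (adjusted p = 0.041). The Mtr probe A_55_P2152962 was higher in 3B3l than in J1 by 0.85 ± 0.11 in serum (adjusted p = 5.2e-05) and 0.86 ± 0.12 in 2i (adjusted p = 0.00014), while the brighter Mtr probe gave -0.32 ± 0.25 and 0.34 ± 0.26 (adjusted p = 0.30 and 0.33). In TKO-serum the brighter Mtr probe gave -0.64 ± 0.25 (adjusted p = 0.058), and -0.82 without J1-serum replicate 1 (adjusted p = 0.0078). The other probe went the opposite way there, at 0.35 ± 0.11 (adjusted p = 0.026), so that no direction of Mtr in TKO-serum can be read. In TKO-2i the brighter probe gave 0.10 ± 0.23 (adjusted p = 0.79) and the other 0.32 ± 0.11 (adjusted p = 0.044). A difference of Mtr in TKO-2i thus rests on 1 probe.

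By gene, 1 of 8 members passed both thresholds between TKO-serum and J1-serum (Mat2a; 16.5% of all genes did), 0 between TKO-2i and J1-2i (7.35%), 1 between 3B3l-serum and J1-serum (Mat2a; 19.3%) and 2 between 3B3l-2i and J1-2i (Mat2a and Bhmt2; 14.4%). No member passed both in the difference of 2i responses between TKO and J1 (15.3% of all genes) or between 3B3l and J1 (17.2%). In the limma tests that gave 0, 2 members had an unadjusted p under 0.05 between TKO-2i and J1-2i, 2 in the difference of responses of TKO and 4 in that of 3B3l. A two-sample test without moderation also gave 0 between TKO-2i and J1-2i. These comparisons share the J1 arrays. The median of all genes was itself shifted by 0.13 between 3B3l-serum and J1-serum.

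**Figure D3:**
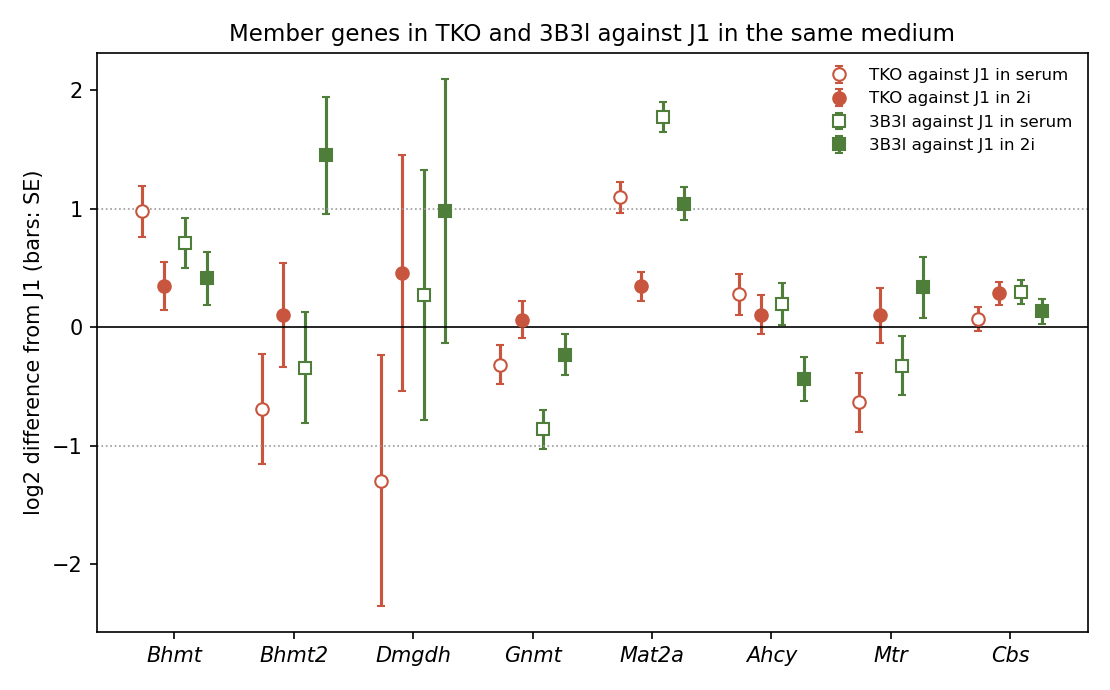
Difference of TKO (circles) and 3B3l (squares) from J1 in serum (open) and in 2i (filled), on the log2 scale with its standard error, for the representative probe of each of the 8 measured members; dotted lines mark 2-fold. Mat2a in serum stands at 1.10 in TKO and 1.78 in 3B3l, and the wide bars of Dmgdh rest on J1-serum replicate 1.

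The rise of Bhmt, Bhmt2 and Dmgdh was set beside that of the 6 protein-coding genes on either side in gene order. Of these 12 genes 11 were on the array and 7 were measured. Mtx3, a mitochondrial outer membrane protein, differed between 2i and serum by -0.28, -0.34 and -0.81 in J1, TKO and 3B3l. Tent2, a poly(A) polymerase, differed by 0.20, 0.29 and 0.54, and Homer1, a synaptic scaffold protein, by 0.59, -0.30 and -0.26. On the Dmgdh side Scamp1 differed by -0.82, -0.44 and -0.25, and Tbca, a tubulin chaperone, by -0.40, 0.14 and 0.19. Ap3b1, a subunit of the AP-3 adaptor, rose by 0.68 ± 0.08, 0.73 ± 0.09 and 0.71 ± 0.10 (adjusted p = 8.1e-06, 4.1e-05 and 0.00015).

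Only Lhfpl2 reached 2-fold among the measured neighbours, and not in 1 direction. It fell by 2.42 on the log2 scale in J1 (adjusted p = 3.9e-07), rose by 1.27 in TKO (adjusted p = 0.00091) and differed by 0.36 in 3B3l (adjusted p = 0.37). Lhfpl2 was above background on 1 of 2 TKO-serum arrays and 2 of 3 J1-2i arrays, so the sizes in TKO and J1 rest in part on levels under background. Its level was -0.29 to 0.10 in J1-serum and -2.72 to -2.39 in J1-2i, groups between which the fibroblast markers also fell, and their part in this was not tested. Between Dmgdh and Lhfpl2 lies Arsb, whose probes were not above background on any array. Cmya5 and Jmy were above background on 1 array each, Otp on none, and Gm6109 was not on the array.

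**Figure D4:**
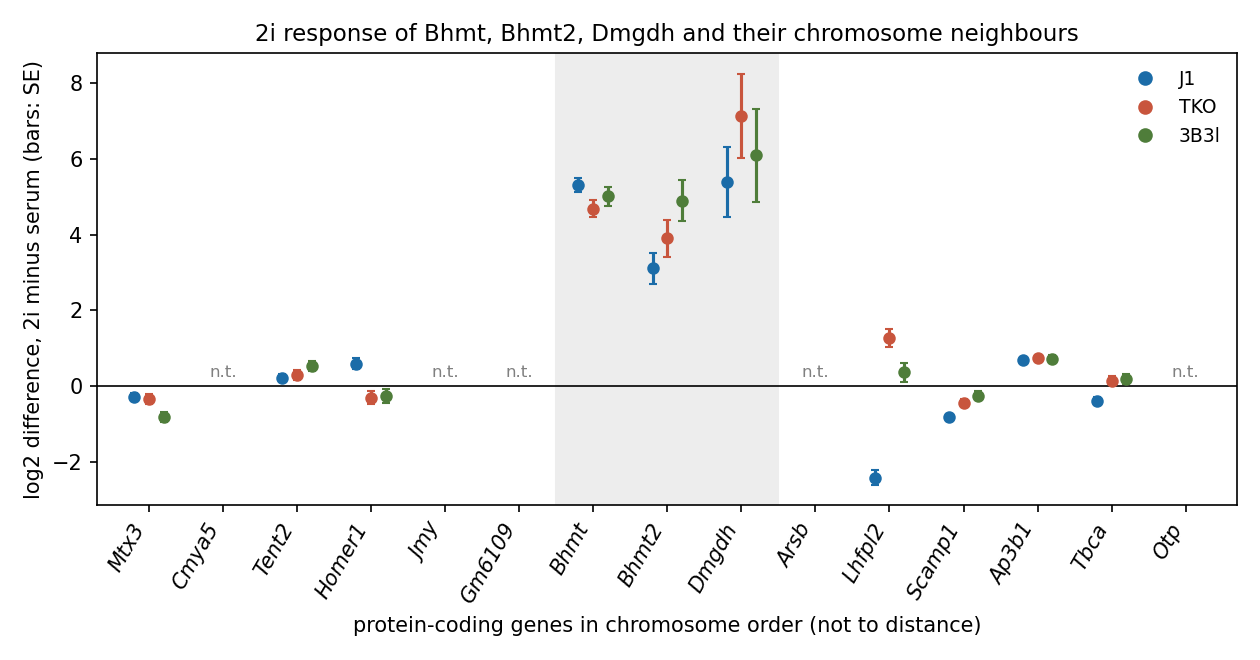
2i minus serum difference (log2, with its standard error) of Bhmt, Bhmt2 and Dmgdh (shaded) and of the protein-coding genes beside them in chromosome order, in J1, TKO and 3B3l; n.t. marks genes that were not tested. The fitted differences of the shaded genes lie between 3.11 and 7.14, in part against serum levels under background, and each measured neighbour lies between -2.42 and 1.27.

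The genes whose levels over the 16 arrays ran closest to Bhmt, of 13627 genes with complete values, were Rac2 (Pearson r = 0.991), Nfe2 (0.985) and Mapt (0.984). Closest to Dmgdh were Dio3 (0.972), Ap3b1 (0.953) and Sfrp1 (0.953). The choice of these 3 rests on J1-serum replicate 1: without it their values were 0.9775, 0.978 and 0.9784, and they ranked 20, 19 and 17. Without it Rac2 (0.991) was still closest to Bhmt, while Nfe2 (0.983) ranked 4 and Mapt (0.985) ranked 3. All arrays of a medium share that medium, so that these values describe the split between serum and 2i. Within the set, Bhmt correlated with Bhmt2 at 0.936, with Dmgdh at 0.921, with Cbs at 0.873 and with Gnmt at -0.895, and with Dmgdh at 0.983 without J1-serum replicate 1. Rac2 was at -3.33 to -2.68 in J1-serum, under background, and at 0.55 to 0.62 in J1-2i. Dio3, which inactivates thyroid hormone, was above background on 1 of the 4 J1-serum arrays and on all 8 of the 2i arrays.

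The wider pathway was described with 6 lists of 84 genes in all, of which 83 were on the array and 76 were tested. In J1, 15 genes were higher and 3 lower in 2i, where 10.1% and 12.6% of all genes were. In TKO the counts were 9 and 3, beside 6.72% and 9.08% of all genes, and in 3B3l 5 and 6, beside 5.62% and 7.95%. Of the 9 genes in TKO, Nnmt was under background in both media, which leaves 8 with a measured rise. The same shares of all genes stand beside the counts of each list below. A gene under background in 1 medium entered the tests through groups where it was high, and its p then rests on levels under background. The median difference over the 76 genes was 0.23 in J1, 0.11 in TKO and -0.06 in 3B3l, beside 0.05, 0.07 and 0.0028 over all genes. Of the 76 genes, 4 were measurably higher in all 3 lines (Aldh1l1, Cdo1, Gss and Gcat), beside 1.83% of all genes by the same count. None was called lower in all 3, beside 3.59% of all genes.

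The folate cycle, which feeds methyl groups to Mtr, had 18 tested genes. In J1 5 were higher and 1 lower, in TKO 3 and 2, and in 3B3l 1 and 1. Aldh1l1, which oxidises formyl-tetrahydrofolate and so takes carbon units out of the folate pool, read 0.31 to 0.51 in J1-serum and 2.67 to 2.70 in J1-2i, -1.14 and -1.01 in TKO-serum and 1.38 to 1.72 in TKO-2i, and -0.58 and -0.54 in 3B3l-serum and 1.40 and 1.51 in 3B3l-2i. It rose by 2.25 ± 0.09, 2.60 ± 0.11 and 2.02 ± 0.12 (adjusted p = 9.5e-10, 3.9e-09 and 9.2e-08). Its mitochondrial counterpart Aldh1l2 was under background in J1-serum and rose in J1 by at least 1.60-fold. It was tested only because J1-2i was above background, which no array of another group was, so no p is given. Mthfd2l, a mitochondrial folate dehydrogenase, fell in 3B3l by at least 6.18-fold. It was under background in 3B3l-2i and was tested through the serum groups, so no p is given.

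Downstream of Cbs, the list of transsulfuration and glutathione had 11 tested genes, with 3 higher and 2 lower in J1 and 2 higher and 0 lower in both other lines. Cdo1, which oxidises cysteine and starts taurine synthesis, read -0.24 to -0.13 in J1-serum and 2.20 to 2.33 in J1-2i. The rise was 2.45 ± 0.10, 1.67 ± 0.12 and 1.54 ± 0.14 in the same order of lines (adjusted p = 1.2e-09, 4.1e-07 and 2.8e-06). Gss, glutathione synthetase, rose by 2.48 ± 0.11 in TKO (adjusted p = 4.8e-09) and 1.35 ± 0.12 in 3B3l (adjusted p = 2.6e-06). Sqor, a mitochondrial sulfide oxidase, fell in J1 by at least 2.88-fold. It was under background in J1-2i and was tested through serum groups, so no p is given.

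Among 15 tested genes of the methionine cycle, methionine salvage and polyamines, 2 were higher and 0 lower in J1, 0 and 1 in TKO, and 0 and 4 in 3B3l. Adk, the kinase that removes the adenosine released by Ahcy, read 4.33 and 4.43 in TKO-serum against 1.78 to 1.87 in TKO-2i, and 3.86 and 3.99 in 3B3l-serum against 1.81 and 2.09 in 3B3l-2i. It fell by 2.54 on the log2 scale in TKO (adjusted p = 5.8e-09) and by 1.98 in 3B3l (adjusted p = 1.3e-07). In J1 it read 2.74 to 2.97 in serum and 2.00 to 2.15 in 2i, so that the 2i levels of the 3 lines were close and the serum levels were not. Mri1, of the methionine salvage pathway, fell by 1.19 in 3B3l (adjusted p = 1.2e-05). Slc7a5, a chain of the transporter of large neutral amino acids such as methionine, rose by 1.74 in J1 (adjusted p = 2.7e-05) and the salvage enzyme Apip by 1.33 (adjusted p = 2.1e-05).

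In the list of glycine, serine and threonine, 11 genes were tested, with 3 higher and 0 lower in J1, 2 and 0 in TKO, and 1 and 1 in 3B3l. Gcat, which acts in threonine breakdown to glycine, rose by 1.26 ± 0.17 in TKO (adjusted p = 7.4e-05) and 1.15 ± 0.18 in 3B3l (adjusted p = 0.00045). Amt, the aminomethyltransferase of the glycine cleavage system, rose by 1.53 ± 0.25 in J1 (adjusted p = 0.0002) and 1.23 ± 0.29 in TKO (adjusted p = 0.0059), and Gldc, the decarboxylase of that system, fell by 1.11 in 3B3l (adjusted p = 0.0026). The glycine transporter Slc6a9 rose by 1.24 ± 0.11 in J1 (adjusted p = 8.4e-07).

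Of 12 tested genes that supply choline and betaine, 1 was higher in J1 and 1 in TKO, and none was lower. In 3B3l 0 were called by limma and 7 had an unadjusted p under 0.05. The gene called was the choline transporter Slc44a1, under background in serum in J1 and TKO, which rose by at least 2.11-fold in J1 and at least 2.20-fold in TKO. Only in 2i groups was it above background on all arrays, and it was tested through them, so no p is given. Of 9 tested small-molecule methyltransferases 1 was higher in 2i in J1 and in 3B3l. This was Nnmt, which methylates nicotinamide at the cost of S-adenosylmethionine. It was under background on all serum arrays and was tested only because both 3B3l-2i arrays were above background, as were 2 of 3 in J1-2i. It rose by at least 1.17-fold in J1 and at least 1.58-fold in 3B3l, and for the same reason no p is given. In TKO it was under background in both media, where it passed the thresholds of the fit but no rise can be read. Fibroblast markers fell between serum and 2i in each line as given above, and their part in the changes of these lists was not tested.

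**Figure D5:**
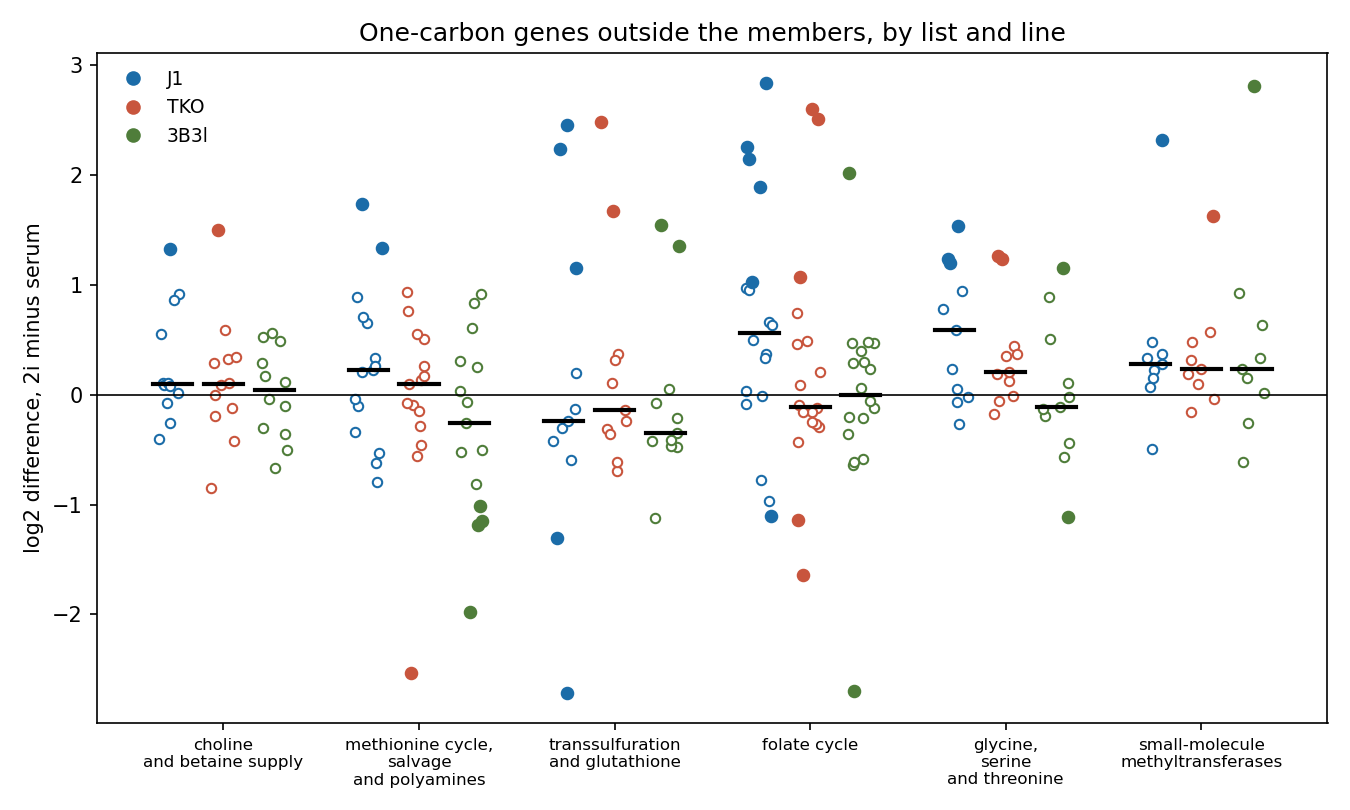
2i minus serum difference (log2) of each tested gene of the 6 lists outside the set, in J1, TKO and 3B3l; filled points passed both thresholds, open points did not, and black bars are medians. The folate list holds points from -2.70 to 2.83, and the filled point of the small-molecule methyltransferases in TKO is Nnmt, under background in both media.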

How the data were processed

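Total RNA was hybridised to one-colour (Cy3) Agilent mouse 8x60K arrays, 1 per sample. Per the file headers, the deposited scanner files came from Agilent Feature Extraction (version 11.5.1.1) and hold the processed signal as intensity, after background subtraction, together with the raw signal and background intensity and with 0 or 1 flags for background, saturation and outliers as deposited. The grid was built on mm9. A table of log2 values of 30170 probes, deposited by the authors, was used as an alternative. Its columns matched their own group in 16 of 16 cases but their own replicate number in only 3.

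Here log2 of the processed signal was set relative to the 75th percentile of the non-control spots of each array. Spots marked non-uniform or as population outliers were dropped, saturated ones kept, and spots of a probe averaged. A probe was above background on an array where at least 50% of its spots carried the flag, and was tested where this held on every array of at least 1 group (27126 probes, 9277 without a gene name; 13917 genes). Symbols came from the RefSeq table of GRCm38.p6, which named 28026 of 55681 probes. The probe with the highest mean represented a gene.

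All 16 arrays were fitted with 6 group means in limma 3.58.1 (R 4.3.3), with eBayes and Benjamini-Hochberg adjustment over all tested probes, two-sided. Calls needed an adjusted p of at most 0.05 and at least 2-fold. A group under background on all arrays gives a bound against the dimmest signal above background. Precision is limited by how many arrays each group has. Alternatives changed the normalization, background correction, filter, source table, fold limit, slide, replicate block, probe choice and test, and left out each array. The fit was tested on simulated data.

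The members and all lists were chosen with earlier results of these data known. Named genes outside the set were at most 2 called genes per list and line by absolute change, all neighbours, and the 3 genes most correlated with Bhmt and with Dmgdh. Of the called folate genes 1 that this rule names is not reported here. Same-numbered arrays deviated together by correlations of -0.129 to 0.293, and the numbers were not treated as pairs.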

Additional observations from a re-analysis of the deposited data

Results flagged for a closer look

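J1-serum replicate 1 lay far from the other 3 arrays of its group for 3 genes of the set. On it Dmgdh read 0.3346 against -4.71 to -4.40, Mat2a 4.1533 against 3.75 to 3.79, and Ahcy 2.8408 against 3.32 to 3.39, each by the brightest probe of the gene. On the other Mat2a probe it read 3.20 against 3.02 to 3.16, and on the other Ahcy probe 2.16 against 3.00 to 3.12. The gap to the nearest array, as a share of the range of the group, was 0.939, 0.901 and 0.869 for the brightest probes of Dmgdh, Mat2a and Ahcy, above the 95% critical value of Dixon's test for 4 arrays, which chance passes in about 5% of groups. This array was the only J1 array on slide 3 and was read on the other scan day than the rest of J1. The part of the slide in these values was not tested.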

How the results depend on the processing

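Counts of members called were small, so that 1 gene moved them. TKO-serum against J1-serum gave 1 member, 2 with quantile normalization, median scaling, the authors' table, no fold limit or slide as a term, 0 with normexp background correction, and 0 to 2 when single arrays were left out (2 without J1-serum replicate 1 or 2 or TKO-serum replicate 2, 0 without TKO-serum replicate 1). TKO-2i against J1-2i gave 0, and 1 with no fold limit. 3B3l-serum against J1-serum gave 1, 4 with no fold limit, 2 with slide as a term, and 1 to 2 leaving out single arrays (2 without J1-serum replicate 1 or 3B3l-serum replicate 1). 3B3l-2i against J1-2i gave 2, 1 with quantile normalization, with only probes above background on all arrays, with the replicate block or with the mean over probes, 0 with the authors' table, and 0 to 2 leaving out single arrays (0 without J1-2i replicate 3). With slide as a term the count was again 2, but of other members: Mtr (1.07, adjusted p = 0.033) and Dmgdh, while Mat2a (0.66) and Bhmt2 (adjusted p = 0.20) were no longer called. The difference of responses gave 0 in both lines, 1 in TKO with no fold limit or slide as a term, 1 in 3B3l with normexp, no fold limit or the replicate block (Bhmt2, adjusted p = 0.047), and 0 to 1 leaving out single arrays. Wider pathway genes called rose from 18, 12 and 11 in J1, TKO and 3B3l to 45, 29 and 32 with no fold limit, and a two-sample test without moderation and with Benjamini-Hochberg adjustment called 0 in 3B3l. Median scaling moved their balance: 21 were higher and 2 lower in J1, against 15 and 3 in the main fit. In 3B3l 8 were higher and 4 lower, against 5 and 6. With slide as a term the 3B3l minus J1 difference of Dmgdh turned to -3.41 in serum and -3.93 in 2i. The replicate block changed no other count by over 1.5 times. Signal over background limits Sardh, Dmgdh and the serum levels of Bhmt; the causes of these shifts were not tested.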
